A study of Gorilla gorilla with 12 samples.

Results

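Adipogenic and lipid storage genes were examined in cultured gorilla fibroblast lines on a human expression array, with 1 array per culture. The 9 genes were PPARG, CEBPA, CEBPB, CEBPD, G0S2, LPL, LPIN1, SCD and FABP4, taken by name. Each was represented by the 1 probe set whose annotation gave only its symbol, so 9 of the 12625 probe sets, and 9 of 8226 genes with such a probe set, were read. Of the 9, 7 passed the filter on low values and were tested, and SCD and FABP4 did not.

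All cells were fibroblasts from normal gorillas, with no treatment in the labels. One array held male line 2 (KB_7621), donor of 26 years, harvested at 50% confluence, when cells cover part of the dish. The other 11 held standard harvests, 1 array per line. The 5 male lines were male 1 (KB_7500, 19 years), male 2 (KB_7621, 26 years), male 3 (KB_7801, 24 years), male 4 (KB_8592, 18 years) and male 5 (KB_9047, 3 years). The 6 lines labelled female were female 1 (KB_5047, 19 years), female 2 (KB_6268, 19 years), female 3 (KB_6278, 35 years), female 4 (KB_8021, 26 years), female 5 (KB_8594, 30 years) and female 6 (KB_8840, 2 years). The sources used here do not give the biopsy site, the passage number or the density at standard harvest, and each line is labelled as coming from 1 gorilla.

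In adipogenesis, C/EBP-beta and C/EBP-delta act early and induce PPAR-gamma and C/EBP-alpha, which then maintain each other and switch on the genes of fat storage. These include FABP4, a carrier of fatty acids, and LPL, which releases fatty acids from lipoproteins. SCD makes monounsaturated fatty acids, LPIN1 forms the diacylglycerol from which triacylglycerol is built, and G0S2 inhibits the lipase PNPLA2 that breaks it down. Fibroblasts are not adipocytes, but preadipocytes belong to the same mesenchymal lineage. C/EBP-beta and C/EBP-delta are also known from inflammatory and growth-arrest responses in many cell types.

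Of the fibroblast markers, 10 of 10 measured, COL1A1, LUM and FAP among them, stood above the floor of the deposited values on all 12 arrays. That floor is an intensity of 100, and a value there is only an upper limit. Some markers of other cell types, such as KRT8, CD68 and ACTC1, were also above it on all 12, so this does not test the fibroblast label. Of 6 measured adipocyte markers, the hormone genes ADIPOQ and LEP were at the floor on all 12 arrays and LIPE was above it on all 12. CFD was above it on 10 arrays, GPD1 on 5 and PLIN1 on 2. The summed adipocyte marker intensity was 803 at 50% confluence, 638 to 1167 in the male lines and 753 to 1104 in those labelled female. RPS4Y1, a Y-linked gene, had 2662 to 4363 in the male lines and 100 to 115 in 5 lines labelled female. The line labelled female 3 had 2595, which goes against its label, so values without it are given where it moves a result named here. The share of probe sets at the floor was 40.1% to 49.2% per array, and the 3' to 5' ratio of GAPDH, a measure of RNA quality, ran from 0.821 to 1.34. The same ratio of ACTB ran from 0.672 to 1.19. Human probes on gorilla RNA can lose signal at any base difference, so an intensity is compared between arrays and not with that of another gene. Counts of lines above the floor and sums over markers carry that limit.

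In standard culture the genes divided by how often they were above the floor. CEBPA, CEBPB and CEBPD, the genes for the C/EBP factors, were above the floor in all 11 standard lines. PPARG was above it in 10 lines, but never beyond an intensity of 234. G0S2 and LPL were above it in 7 lines each and LPIN1 in 4. SCD was above it in 1 line and FABP4 in none.

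**Figure D1:**
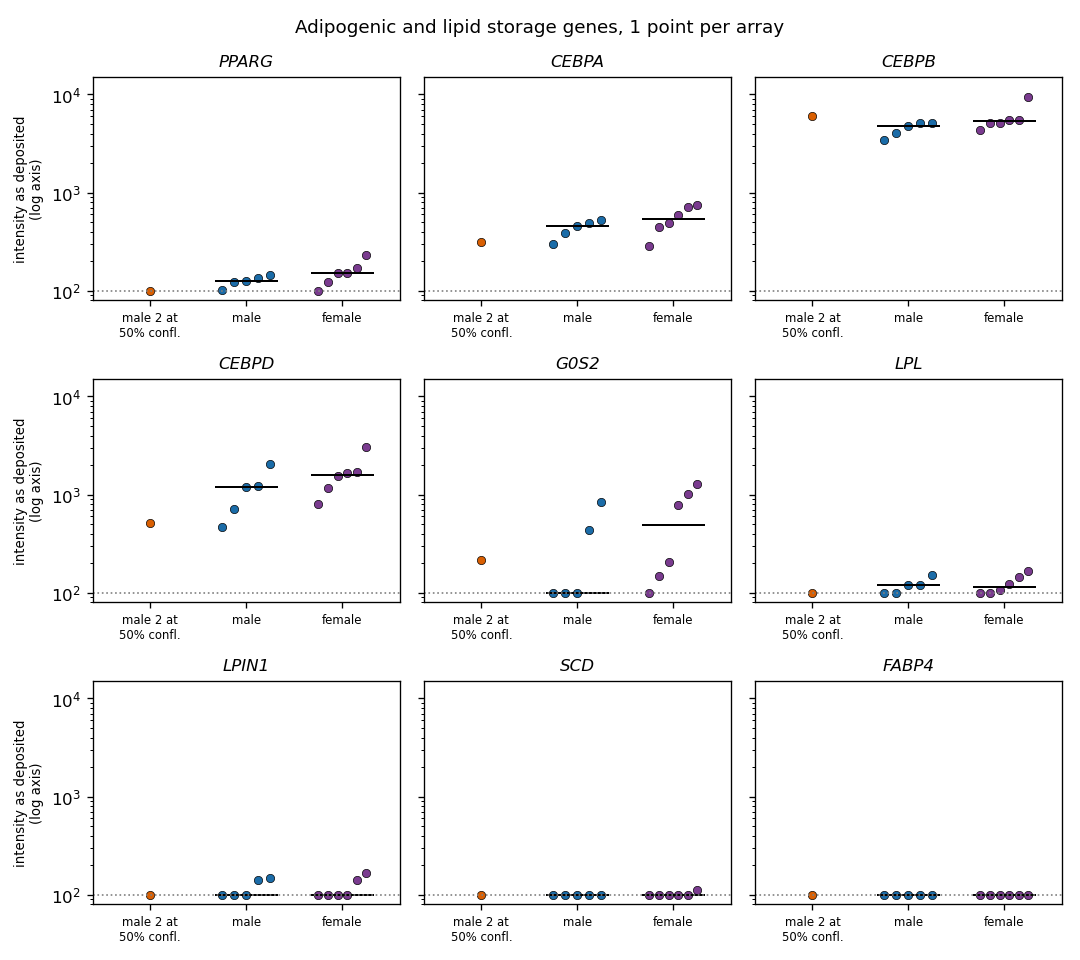
Deposited intensity (log axis) of the 9 genes on all 12 arrays, with 1 point per array, in the columns male 2 at 50% confluence, male and female. Black bars mark medians and the dotted line is the floor of 100. G0S2 covers the range from 100 to 1278 over the standard lines, CEBPB lies between 3415 and 5533 in 10 standard lines and at 9342 in the line labelled female 3, and FABP4 is at the floor throughout.

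Among the transcription factors, CEBPD, the early-acting C/EBP-delta, varied most. Its intensities in males 1 to 5 were 710, 2048, 465, 1221 and 1196, with a mean of 1128 ± 607 (SD, n = 5). In the lines labelled female they ran from 804 in female 2 to 3062 in female 1, with a median of 1601 and a mean of 1656 ± 768 (SD, n = 6). The highest and lowest lines thus differed 6.59-fold, and the sexes overlapped between 804 and 2048. In bulk RNA, fewer cells with a transcript and less transcript per cell cannot be told apart. The suffix of the CEBPD probe set (s_at) marks probes that may match more than 1 transcript.

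CEBPB, the gene for C/EBP-beta, was more even apart from 1 line. Males 1 to 5 had 4084, 4776, 5096, 5137 and 3415. The lines labelled female had 4370 to 5533 in 5 cases, and the line labelled female 3 had 9342. The SD over the 11 lines on the log2 scale was 0.38, and 0.245 without the line labelled female 3.

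CEBPA, whose product sustains the adipocyte state, had 300, 454, 390, 486 and 522 in males 1 to 5. In the lines labelled female it ran from 285 in female 5 to 744 in female 1, with a median of 542.5, so the male values lay inside the female range. Its probe set (suffix r_at) was designed under relaxed rules, as its suffix shows.

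PPARG, the gene for the master regulator of adipocytes, had 101, 146, 123, 135 and 126 in males 1 to 5. The lines labelled female ran from the floor of 100 in female 4 to 234 in female 2, with a median of 151.5. All values lay close to the floor, where small differences carry little weight, and the SD of 0.35 log2 units was 0.239 without female 2.

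G0S2 separated the lines most. It was at the floor in males 2, 3 and 5, while male 1 had 436 and male 4 had 841. Among the lines labelled female, female 2 had 1278, female 5 had 1006 and female 3 had 786, against 208 in female 1, 147 in female 4 and the floor in female 6. Females and males each held lines at both ends, so the range of at least 12.8-fold was not a division by sex. The SD between lines was 1.52 log2 units, a spread reached by 0.252% of the 7535 tested probe sets, where G0S2 ranked 19. The median SD of tested probe sets was 0.406. Leaving out each line in turn gave SDs of 1.42 to 1.59, and raising the floor to 200 gave 1.12. The genes were chosen with earlier results of these data known, so the rank is a description only.

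The 7 tested genes fell at different places in the spread of all probe sets. The SD of CEBPD, 0.76, was reached by 6.3% of tested probe sets. Those of CEBPA (0.43), CEBPB (0.38) and PPARG (0.35) were reached by 44.1%, 58.3% and 64.8%, close to the middle. LPIN1 (0.30) and LPL (0.28), at the floor in 7 and 4 lines, were reached by 79% and 83.5%, in the lower part.

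**Figure D2:**
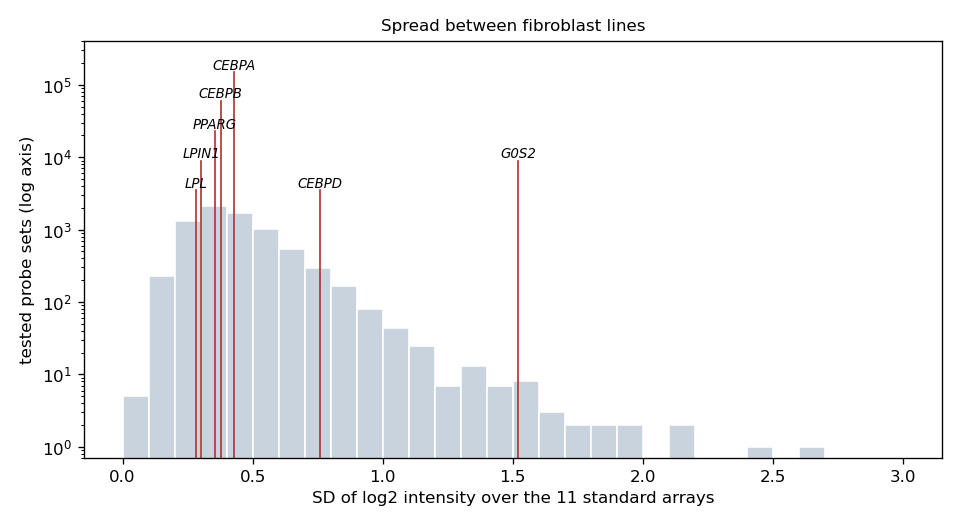
Histogram of the SD of log2 intensity over the 11 standard arrays for the 7535 tested probe sets (count on a log axis), with red lines at the 7 tested genes. G0S2 at 1.52 lies in the far tail, CEBPD at 0.76 in the shoulder, CEBPA, CEBPB and PPARG near the centre, and LPIN1 and LPL in the lower part.

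The enzymes and carriers of fat storage were at or near the floor. LPL had 119, 120, 100, 153 and 100 in males 1 to 5 and at most 166, in female 4, among the lines labelled female. LPIN1 was above the floor in male 4 (143), male 5 (150), female 4 (167) and the line labelled female 3 (141). SCD had 111 in the line labelled female 3 and 100 in the 10 other standard lines. FABP4 had 100 on all 12 arrays. Whether a probe set at the floor reflects little transcript or a base difference between human probe and gorilla RNA was not tested.

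No difference between the sexes passed the threshold for these genes. limma called 0 of 7 tested members and 0% of the 7535 tested probe sets at an adjusted p under 0.05. At an unadjusted p under 0.05 it had 0 of the 7 members, against 5.26% of all. On the log2 scale, male minus female, G0S2 stood at -0.88 (SE 0.74, adjusted p = 0.893) and CEBPD at -0.59 (SE 0.38, adjusted p = 0.890). CEBPB stood at -0.36 (SE 0.22, adjusted p = 0.890), or -0.213 without the line labelled female 3. CEBPA and PPARG stood at -0.31 and -0.24, and LPL and LPIN1 at -0.10 and -0.047. Without the line labelled female 3, G0S2 was at -0.675, CEBPD at -0.573, CEBPA at -0.217, PPARG at -0.235 and LPL at -0.155. Single lines moved these sizes. With each line left out in turn, G0S2 ran from -1.39 (without male 4) to -0.537 (without female 2) and CEBPD from -0.852 (without male 2) to -0.318 (without male 3). CEBPA ran from -0.48 (without female 5) to -0.201 (without female 1), and PPARG from -0.35 (without female 4) to -0.0998 (without female 2). All 7 estimates were negative over the 11 lines, with a median of -0.31, against 51.2% negative and a median of -0.0088 over all tested probe sets. That count does not hold throughout, since LPIN1 was at 0.00596 without the line labelled female 3 and 0.0143 on values as deposited, and LPL at 0.0131 without female 4. The exact two-sided permutation test over the arrays gave p = 0.108 for CEBPB, the lowest of the 7, and 0.924 for LPIN1, the highest.

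Donor age did not pass for any of them either. limma called 0 of 7 members and 0% of tested probe sets at an adjusted p under 0.05. At an unadjusted p under 0.05 it had 0 of 7, against 5.44% of all. Among the 7, G0S2 had the steepest slope, at 0.59 per 10 years on the log2 scale (SE 0.37, adjusted p = 0.930). By donor age, G0S2 was at 100 in the donors of 2 and 3 years, 841 at 18 years, 436, 208 and 1278 at 19 years, 100 at 24 years, 100 and 147 at 26 years, 1006 at 30 years and 786 at the labelled 35 years. The order of ages was therefore not an order of levels. With donors under 10 years left out the slope was -0.315, the other sign, and it was -1.14 when the line labelled female 3 was left out as well. CEBPB had a slope of 0.15 (SE 0.11), which was 0.0376 without the line labelled female 3 and 0.311 without female 6. The slope of CEBPA, -0.11, was -0.227 without the line labelled female 3, -0.0243 without female 5 and -0.556 in adults without the line labelled female 3. That of CEBPD, -0.096, ran from -0.217 (without male 2) to -0.0133 (without male 3). PPARG, LPIN1 and LPL lay between -0.011 and 0.023 over the 11 lines. A difference of slope between the sexes was called for 0 of 7535 probe sets (limma interaction), with 282 at an unadjusted p under 0.05.

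**Figure D3:**
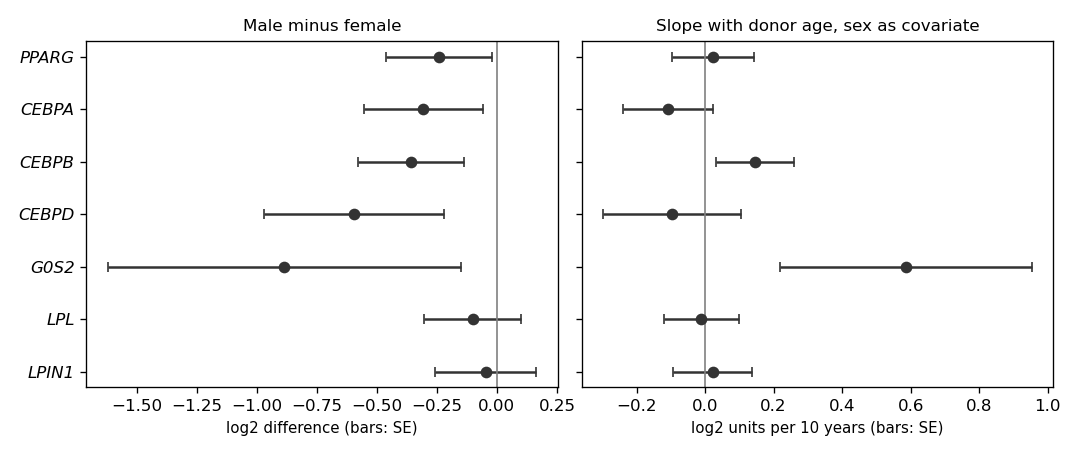
Left, male minus female log2 difference of the 7 tested genes. Right, their slope with donor age (log2 units per 10 years), fitted with sex as covariate. Points are limma estimates and bars are SE over the 11 standard arrays, and no gene passed the threshold in either comparison.

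No pair of these genes passed the correction for a correlation over the lines. The 4 genes at the floor on at most 3 of the 11 standard arrays, CEBPA, CEBPB, CEBPD and PPARG, gave 6 pairs. For CEBPA and CEBPD, Pearson's r was 0.621 (permutation p = 0.0415, adjusted p = 0.249 over the 6 pairs) and Spearman's rho was 0.627 (permutation p = 0.0436, adjusted p = 0.262). Without females 1 and 5, the lines farthest from the median of CEBPA, r was 0.594. For CEBPA and CEBPB, r was 0.525 (permutation p = 0.090, adjusted p = 0.270), rho 0.445 (permutation p = 0.173, adjusted p = 0.346), and r was 0.307 without the line labelled female 3. With females 1 and 5 left out, that r was 0.712. CEBPB and CEBPD had an r of 0.377 (permutation p = 0.240, adjusted p = 0.481) and a rho of 0.536 (permutation p = 0.0917, adjusted p = 0.275), and r was 0.552 without male 5 and the line labelled female 3. PPARG had r of -0.330 with CEBPD (permutation p = 0.324), -0.0784 with CEBPA (permutation p = 0.816) and 0.186 with CEBPB (permutation p = 0.521), the adjusted p of these 3 being 0.486, 0.816 and 0.625. The matching rho were -0.236 (permutation p = 0.485, adjusted p = 0.582), -0.0364 (permutation p = 0.926, adjusted p = 0.926) and 0.3 (permutation p = 0.376, adjusted p = 0.563). With the 2 farthest lines left out, r was -0.261, 0.316 and 0.0531, so that with CEBPA took the other sign. Female 2, which had the highest G0S2, also had the highest PPARG, but G0S2 was at the floor on 4 arrays and was not correlated.

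The genes whose pattern over the 11 lines was most like each factor were sought among 5498 probe sets by Pearson's r, as a description. CEBPD was most like MMP25 (r = 0.920), a matrix metalloproteinase on a probe set that may match a family of genes, LGALS9 (0.911), a galectin, and PGM5 (0.901). CEBPA was most like ITM2B (0.901), ARSA (0.862), a lysosomal sulfatase, and PTPRF (0.845). CEBPB was most like WFS1 (0.897), an endoplasmic reticulum protein gene, IGF2R (0.886) and the growth arrest gene GAS1 (0.882). These 3 values were 0.703, 0.805 and 0.824 without the line labelled female 3, where WFS1 had 1277 against 165 to 344 in the other lines. PPARG was most like CYB5R1 (0.840), PIM2 (0.815) and DUSP10 (0.799).

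Harvest at 50% confluence was set against the standard harvest of the same line, male line 2. Cell density cannot be told apart here from other differences between the cultures, their RNA or their arrays. The 3' to 5' ratio of GAPDH was 0.990 at 50% confluence and 1.30 in the standard culture, while that of ACTB was 0.857 and 0.865. CEBPD was lower, with 517 at 50% confluence and 2048 in the standard culture, a log2 difference of -1.98 or 3.96-fold. G0S2 was higher, with 215 at 50% confluence and the floor of 100 in the standard culture, at least 2.15-fold. With 1 array per culture there is no replicate to set these differences against, and no p-value is given. Of the 7 tested members 1 was lower by 2-fold or more, against 7.25% of tested probe sets, and 1 was higher by 2-fold or more, against 6.97%. A difference as low as that of CEBPD was found in 0.531% of tested probe sets, and one as high as that of G0S2 in 3.69%.

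The value of CEBPD at 50% confluence still lay inside the range of the standard lines, 465 to 3062, with male 3 below it. G0S2 at 215 lay above 6 of the 11 standard lines. CEBPB had 6075 at 50% confluence and 4776 in the standard culture (log2 difference 0.27), CEBPA 317 and 454 (-0.37), PPARG the floor and 146 (-0.32), and LPL the floor and 120. LPIN1, SCD and FABP4 were at the floor in both. Differences as high as that of CEBPB were found in 33.8% of tested probe sets, and as low as that of CEBPA in 26.9%.

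**Figure D4:**
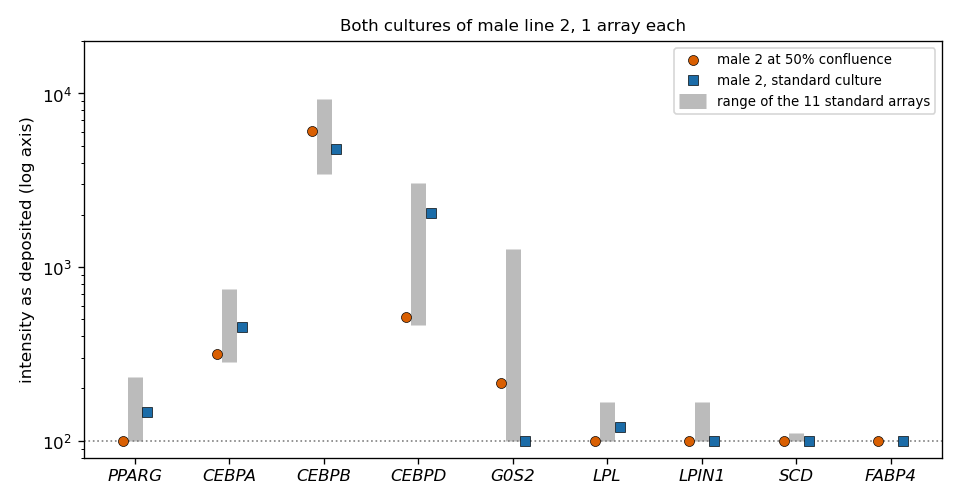
Deposited intensity (log axis) of the 9 genes in male line 2 at 50% confluence (circles) and in its standard culture (squares), 1 array each, with grey bars for the range of the 11 standard arrays. CEBPD is at 517 at 50% confluence, against 2048, and G0S2 is at 215, against the floor of 100.

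The scaling of the arrays bears on this pair. At 50% confluence 49.2% of probe sets were at the floor, against 40.1% in the standard culture, the most and the fewest of the 12. With quantile normalization 525 tested probe sets were higher and 546 lower by 2-fold or more. On values as deposited they were 376 and 850, and with median scaling, which moved the median of all tested probe sets by 0.44, they were 1303 and 231. CEBPD stood at -1.99 as deposited and -1.49 with median scaling, so it kept its direction. G0S2 stood at 1.10 and 1.60. Its standard value is at the floor, so it could not turn its direction, and keeping it carries no weight. With the floor raised to 200, CEBPD was at -1.98 and G0S2 at 0.24, below 2-fold. With median scaling CEBPA was at -0.023, CEBPB at 0.842 and LPL at 0.232, the other sign. LPIN1, at the floor in both cultures, was at 0.495 under that scaling, which shifts the floor itself.

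Other genes of lipid metabolism were read from 7 lists, whose counts stand beside 7.25% lower and 6.97% higher by 2-fold over all tested probe sets. Among the adipogenic regulators 18 genes were tested, and 5 of 25 measured, CEBPE, FOXC2, GATA3, ID2 and ZNF423, were at the floor in all standard lines. KLF5, which promotes adipogenesis, had 112 at 50% confluence and 336 in the standard culture, below the lowest standard line. STAT5A, another promoter of adipogenesis, had 176 and 443. SREBF1, the driver of fatty acid synthesis genes, had 696 and 1173, a difference under 2-fold. Other genes of the list were higher at 50% confluence, also by less than 2-fold. Among them were CEBPG (195 against 168) and NR3C1 (794 against 529). KLF4 had 154 against the floor, where the fold is only a lower limit. Of the 18 tested, 2 were lower and 0 higher by 2-fold, with a median of -0.12 against 0 for all tested probe sets. With median scaling 1 was lower and 2 were higher, and with the floor at 200 1 was lower and 0 were higher.

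The lipolysis list had 2 of 7 tested genes lower by 2-fold and 0 higher, with a median of -0.34, and 1 lower with median scaling or the floor at 200. PNPLA2, the triacylglycerol lipase that G0S2 inhibits, had 1048 at 50% confluence and 2475 in the standard culture, which was its highest standard value. PLAAT3, a phospholipase gene, was at the floor at 50% confluence and had 340 in the standard culture. In the list of triacylglycerol synthesis and droplets 1 of 13 was lower by 2-fold, the phosphatase gene PLPP3, with 1396 at 50% confluence and 2758 in the standard culture, and 0 were lower as deposited or with median scaling. The droplet coat gene PLIN2 had 542 and 1043.

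Of the adipocyte hormone and marker list 3 of 7 tested genes were lower by 2-fold or more, namely the insulin receptor INSR (the floor against 262), its substrate IRS2 (the floor against 290) and AGT (the floor against 339). All 3 were at the floor at 50% confluence, and the count was 2 with median scaling and 0 with the floor at 200. Fatty acid synthesis had 1 of 8 higher, the malic enzyme gene ME1, with 790 at 50% confluence and 376 in the standard culture. That count was 2 as deposited and with median scaling. ACLY, the ATP citrate lyase gene, had 2519 and 1258, a log2 difference of 0.882 after quantile normalization. Fatty acid oxidation had 1 of 17 higher, ETFA, with 507 and 234 (4 with median scaling), and uptake and transport had 0 of 8 in either direction. With median scaling 1 gene each of the triacylglycerol and hormone lists was higher. As deposited 1 oxidation gene was lower. CD36, FABP3 and the liver and intestinal FABP1 and FABP2 were at the floor on all 12 arrays. STAT5A, SREBF1, KLF4, CEBPG, NR3C1, PNPLA2, PLAAT3, PLIN2, INSR, IRS2, AGT, ME1, ACLY and ETFA were named after their values were seen.

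**Figure D5:**
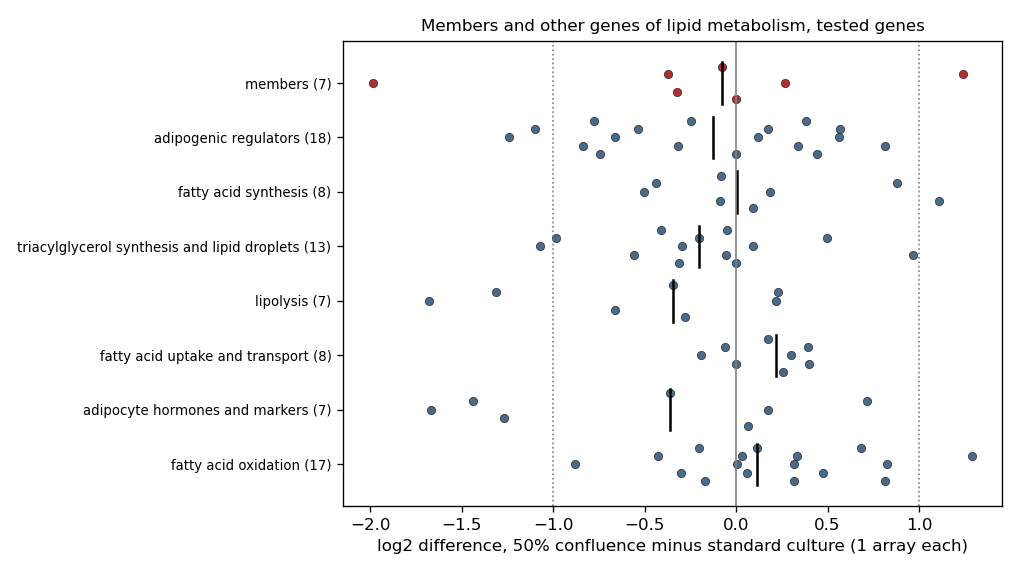
Log2 difference, 50% confluence minus standard culture of male line 2 (1 array each), for the tested genes of each group, with the number of genes in brackets. Points are genes and black bars are medians, with dotted lines at a 2-fold difference. The members (top row) run from -1.98 for CEBPD to 1.24 for G0S2 on quantile-normalized values.

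None of the genes of these lists passed the threshold for sex or age. FABP5, a fatty acid carrier related to FABP4, had 193, 198, 269, 290 and 192 in males 1 to 5 and 100 to 184 in the lines labelled female. The sexes did not overlap for it, as they did not for 0.305% of tested probe sets, at a log2 difference of 0.77 (SE 0.23, adjusted p = 0.804). The line labelled female 3 was at the floor for it. Counted with the males, as its RPS4Y1 signal goes, that line would make the sexes overlap. Without that line the sexes did not overlap either, as for 0.478% of tested probe sets, at 0.693 (adjusted p = 0.942). In fatty acid oxidation ACADM (0.77, adjusted p = 0.804) and HADH (0.80, adjusted p = 0.890) had positive male minus female log2 differences and ACADSB (-0.54, adjusted p = 0.890) a negative one, each at an unadjusted p under 0.05. PLPP1 (-0.79), a lipid phosphate phosphatase, LPIN2 (-0.63), a paralog of LPIN1, FOXO1 (-0.47) and FOSL2 (-0.46) had negative ones at the same level, with adjusted p = 0.890 each. With the floor at 200, FABP5 was at 0.201, HADH at 0.402, ACADSB at -0.235, PLPP1 at -0.643, LPIN2 at -0.134 and FOXO1 at -0.0441. ACADM and FOSL2 were unchanged by that floor. Without the line labelled female 3, ACADM was at 0.625 and the unadjusted p of FOXO1 and LPIN2 was 0.093 and 0.0555. PLPP1 was then at -0.865, and its sexes, which overlapped as labelled, did not overlap, as for 0.478% of tested probe sets. An unadjusted p under 0.05 for sex was thus found for 2 of 18 regulators, 2 of 13 genes of triacylglycerol synthesis and droplets and 1 of 8 of uptake. In oxidation, 2 of 17 were higher and 1 lower at that level. In fatty acid synthesis, lipolysis and the hormone list it was 0 of 8, 0 of 7 and 0 of 7. Over all tested probe sets the share was 5.26%, and the lists were not tested against it.

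For age, the slope of PLIN2 was 0.51 per 10 years on the log2 scale (SE 0.15, adjusted p = 0.826). Female 6, aged 2 years, had 301 and male 5, aged 3 years, had 500, with 1505 in the line labelled female 3, and without that line the slope was 0.409 (adjusted p = 0.993). FAAH, a hydrolase of fatty acid amides (0.42, SE 0.12, adjusted p = 0.826), and IRS1 (0.28, SE 0.11, adjusted p = 0.850) also had positive slopes at an unadjusted p under 0.05. For IRS1 that p was 0.0506 without the line labelled female 3. With the floor at 200 the slope was 0.0471 for FAAH and 0.0348 for IRS1, while that of PLIN2 was unchanged. An unadjusted p under 0.05 for age was thus found for 1 of 13 genes of triacylglycerol synthesis and droplets, 1 of 7 of lipolysis and 1 of 7 of the hormone list. The regulators, fatty acid synthesis, uptake and oxidation had 0 of 18, 0 of 8, 0 of 8 and 0 of 17. Over all tested probe sets the share was 5.44%, and the lists were not tested against it.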

How the data were processed

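The authors deposited linear intensities as whole numbers for each probe set. The sources used here do not state how the scans became these values. The lowest value is 100 on all 12 arrays. Gene names came from the platform annotation table: 10961 probe sets had 1 symbol, 545 several and 1119 none. No probe set with several symbols held a member. Coordinates and sequences are not given. The files name no scan or hybridization batch.

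Intensities were taken to log2 and quantile normalized over 12 arrays. Tested were 7535 probe sets, those with a mean over the 11 standard arrays above the 40th percentile of non-control probe sets. The 67 control probe sets were left out. limma 3.58.1 in R 4.3.3 (lmFit, eBayes) fitted male minus female, and age with sex as covariate, with Benjamini-Hochberg adjustment over all tested probe sets and a threshold of 0.05. SD, n and per-array values are on deposited intensities unless called log2. A difference against the floor is given as both intensities or as at least the deposited fold. Correlations used 100000 permutations, two-sided, in scipy 1.17.1. The code was tested on simulated data. p-values rest on the spread between lines, and precision is limited by the 11 arrays.

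Named genes were all members, for each factor the 3 genes of highest r, and from each list up to 4 of the largest 2-fold differences outside the range of the standard lines (the brighter one above the median of its array) and up to 3 of the smallest unadjusted p under 0.05 for sex and age. Each list gene was read from its brightest probe set. The members and lists were chosen with earlier results of these data known.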

Additional observations from a re-analysis of the deposited data

Results flagged for a closer look

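A value far from the rest of its sex was found in 6 of 65 groups of a named gene and a sex, by the gap to the nearest line over the range of the group. Chance marks about 1 in 20 groups, but the genes were not drawn at random, so the count is not set against that share. CEBPB had 9342 in the line labelled female 3, against 4370 to 5533 in the other lines labelled female. SCD had 111 in the same line and the floor in the others, where any value above the floor is marked. WFS1, which was named for its likeness to CEBPB, had 1277 in that line, against 229 to 344. That line also carries the Y-linked signal that goes against its label. WFS1 had 242 in male 4, against 165 to 186 in the other males. PLPP3 had 5314 in male 3, against 2712 to 3377 in the other males. ACADM had 661 in male 4, against 942 to 1004 in the other males.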

How the results depend on the processing

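No member was called for sex or age, and no pair of members was called, under any alternative run. The tested probe sets called for sex, 0, were 2 with median scaling, 2 with the 50% confluence array in place of male 2, 1 in adults without the line labelled female 3 (an alternative added after seeing the data), and 0 to 1 with each line left out. Those called for age, 0, were 1 with the 50% confluence array. Probe sets 2-fold higher and lower at 50% confluence, 525 and 546, were 376 and 850 as deposited, 1303 and 231 with median scaling and 253 and 283 with the floor at 200. Several small estimates turned sign. LPIN1 between the sexes was 0.0143 as deposited, 0.0073 with median scaling and -0.133 to 0.00596 with a line left out, and LPL -0.178 to 0.0131. The slope of PPARG was -0.0106 as deposited, -0.00713 with the floor at 200, -0.00328 with the 50% confluence array, -0.00559 in adults without the line labelled female 3 and -0.00022 to 0.051 with a line left out. That of LPL was 0.0181 with median scaling, 0.00837 with array weights, 0.0223 with log2 of age, -0.251 in adults, -0.206 in adults without the line labelled female 3 and -0.0599 to 0.0399 with a line left out, and that of LPIN1 was 0.138 in adults and -0.0603 to 0.121 with a line left out. LPIN1 between the sexes was -0.177 in adults. In adults the slope of G0S2 was -0.315 (-1.14 without the line labelled female 3) and that of CEBPD 0.0414. The r of CEBPA with PPARG was 0.125 as deposited, 0.0277 with the floor at 200, 0.0393 with the 50% confluence array and -0.265 to 0.132 with a line left out, and that of CEBPB with PPARG was -0.165 with the floor at 200. The causes were not tested. The list genes without single lines, and the list counts by scaling, were also added after seeing the data. A second probe set per member was not run, since each member has 1. Probe sets near the floor limit what PPARG, LPL, LPIN1, SCD and FABP4 can show. The same holds for the list genes FABP5, FOXO1, LPIN2, FAAH and IRS1.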

Other observations

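Markers of other cell types were read for the same arrays. Of 9 epithelial markers KRT5, KRT14 and DSP were at the floor on all 12 arrays, while KRT8 (882 to 1662) and KRT10 (1533 to 3059) were above it on all 12. Of 7 leukocyte markers PTPRC, ITGAM and LYZ were at the floor on all arrays, CD68 (420 to 1080) was above it on all and CD14 ranged from the floor to 1673. Of 6 skeletal muscle markers MYF5 was at the floor on all arrays, and TNNT1 (1130 to 2518) and ACTC1 (181 to 18139) were above it on all. MYOG, with up to 550, was above it on 11 arrays, and MYOD1 and DES on 2 each. VWF among 6 endothelial and TYRP1 among 4 melanocyte markers were at the floor on all, and MLANA (106 to 247) was above it on all. Summed epithelial marker intensity was 4806 at 50% confluence, 3236 to 5890 in the male lines and 3288 to 5330 in those labelled female. The skeletal muscle sums were 6916 at 50% confluence, 2086 to 20821 in the male lines and 2575 to 15599 in those labelled female. The leukocyte sums were 1112 at 50% confluence, 1020 to 2676 in the male lines and 1128 to 2908 in those labelled female. The endothelial sums were 600 at 50% confluence, 600 to 828 in the male lines and 600 to 678 in those labelled female. The melanocyte sums were 443 at 50% confluence, 409 to 941 in the male lines and 406 to 690 in those labelled female. Their part in the levels of the adipogenic genes was not tested.

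IL6, a cytokine gene that C/EBP-beta is known to bind, was chosen after its values were seen. It had 14499 in the line labelled female 3, which had the highest CEBPB, and 125 in male 5, which had the lowest. The other standard lines ran from 211 to 2983 and did not keep the order of CEBPB, since female 6 had 309 for IL6 and 5523 for CEBPB. In male line 2 the directions were opposite, with IL6 at 542 at 50% confluence and 884 in the standard culture, and CEBPB at 6075 and 4776.

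GAS1, which was like CEBPB over the standard lines, did not go with it between the cultures of male line 2. GAS1 had 487 at 50% confluence and 1569 in the standard culture, while CEBPB had 6075 and 4776. PGM5, which was like CEBPD, had 103 at 50% confluence and 315 in the standard culture, the same direction as CEBPD.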
